A study of Mus musculus with 12 samples.

Results

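The apoptosis and survival genes are 35 named genes of the mitochondrial and the death receptor routes of cell death, followed in group 2 innate lymphoid cells (ILC2s) of the mouse lung. They were chosen by name from their known roles, with earlier results of these data known. They are 35 of the 21361 genes listed for sorted LAIR-1- and LAIR-1+ cells and 34 of the 18601 listed for KO and WT cells. Fasl was not analysed here in KO and WT cells. By role they are 5 anti-apoptotic BCL-2 guards, 2 pore-forming effectors, 7 BH3-only proteins, 8 death receptors and adaptors, 4 caspases, 6 apoptosome and IAP genes, and 3 genes of the p53 axis.

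In the mitochondrial route, guard proteins such as BCL-2 and MCL-1 hold the pore formers BAX and BAK in check, and BH3-only proteins release that hold by binding the guards or by activating the pore formers. Cytochrome c then leaves the mitochondrion and joins APAF1 to activate caspase-9, whereas death receptors such as FAS activate caspase-8 at the cell surface. Lymphocytes kept in culture depend on cytokines such as IL-2 and IL-7, whose signals are known to sustain the guards and to restrain BH3-only genes.

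RNA was sequenced from 12 libraries in 4 groups of 3: KO ILC2s of mice lacking LAIR-1 (KO 13, 14 and 15), WT ILC2s (WT 9, 10 and 11), and WT ILC2s sorted as LAIR-1- (7, 8 and 10) and LAIR-1+ (1, 2 and 3). The receptor LAIR-1 restrains immune cells when it binds collagen. All groups came from C57BL/6 mice aged 8 weeks given 3 intranasal doses of IL-33 (0.5 µg per mouse), and all cells then spent 24 hours in IL-2 and IL-7 (10 ng per mL each), so no group shows death genes without these cytokines. The labels do not say how the LAIR-1 allele was made, whether WT cells were sorted by LAIR-1, or whether replicates were separate animals. The p-values therefore cover only the spread between libraries, which may be technical.

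The libraries held 18061470 to 20878649 estimated counts in KO and WT cells and 18885002 to 28290487 in the sorted cells. Lair1 was at 0.427, 0 and 3.28 counts scaled to library size (CPM) in KO libraries, against 3.75, 11.1 and 7.66 CPM in WT libraries; it was at 1.10, 0.577 and 1.95 CPM in LAIR-1- libraries, against 8.71, 12.4 and 12.2 CPM in LAIR-1+ libraries. The 13 ILC2 markers were all listed, and summed to 13557 to 16867 CPM in KO libraries against 11715 to 12598 CPM in WT libraries. Il5 was the highest of them there, at up to 9845 CPM. By log2 fold change, 4 of the 13 were higher and 9 lower in KO cells, with a median of -0.09. The 13 summed to 10679 to 11365 CPM in LAIR-1- libraries against 10540 to 11779 CPM in LAIR-1+ libraries. In these bulk samples, a lower value can mean fewer cells that express a gene or less RNA per cell, and the measurements cannot tell these apart.

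The members spanned a wide range of RNA levels when scaled to the length of their exons. Bax, a pore former, was highest, at 249.3 ± 19.9 CPM per kb in KO cells and 253 ± 18.2 CPM per kb in WT cells (SD, n = 3 each). It also led in the sorted cells, at 213 ± 22.1 CPM per kb in LAIR-1- cells and 179 ± 13.9 CPM per kb in LAIR-1+ cells (SD, n = 3 each). Bak1, the other pore former, was among the lowest members, at 0.895 ± 0.494 CPM per kb in KO cells and 0.653 ± 0.215 in WT cells. Casp8, the initiator caspase of the death receptor route, reached 169 ± 8.91 CPM per kb in KO cells and 170 ± 10.6 CPM per kb in WT cells. At the low end, Bcl2l11, which encodes the BH3-only protein BIM, was at 0.316 ± 0.280 CPM per kb in KO cells and 1.20 ± 1.04 CPM per kb in WT cells, a difference smaller than the spread between libraries. Bmf, another BH3-only gene, had no count in the 3 KO libraries and 116, 0 and 10 counts in WT 9, 10 and 11. Fasl, the ligand of FAS, stayed between 0 and 0.437 CPM over the 6 sorted libraries. Neither Bmf in either experiment nor Fasl had enough counts to be tested, which left 33 tested members in each comparison.

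**Figure D1:**
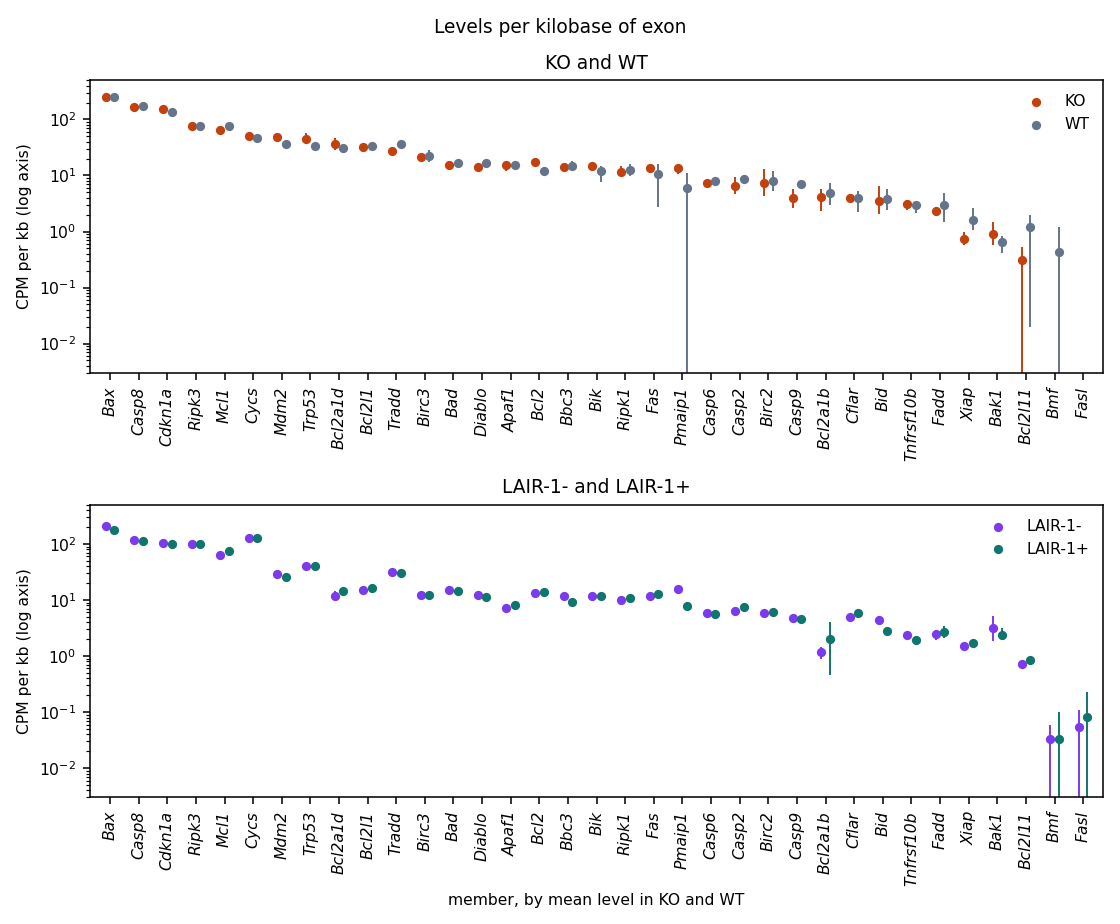
RNA level of each member in CPM per kilobase of exon on a log axis, with the mean of 3 libraries as a point and their lowest to highest value as a line; a value of 0 runs off the foot of the axis. Bax was highest in all 4 groups, at 249.3 CPM per kb in KO cells, and Bak1, Xiap, Bcl2l11, Bmf and Fasl were among those at the low end.

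The comparison of sorted cells sets WT ILC2s that lack LAIR-1 on their surface against WT ILC2s that bear it. Of the 33 tested members, 2 rose in LAIR-1- cells, both BH3-only genes, and none fell by the quasi-likelihood test of edgeR with Benjamini-Hochberg adjustment over all 14261 genes. Over all those genes, 1.30% were called higher and 2.71% lower, 4.01% in all. At an unadjusted p below 0.05 there were 4 members on the higher side (6.07% of all genes) and 3 on the lower side (9.33%), which makes 7 of 33, or 21.2%, against 15.4% of all genes. The median log2 fold change was 0.01 over the members and 0.01 over all genes.

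Pmaip1 had the largest log2 fold change of the tested members. It encodes NOXA, a BH3-only protein that binds MCL-1 and promotes its breakdown, and lies at chr18:66458533-66465565 on the plus strand of GRCm38. It reached 43.6, 44.9 and 39.2 CPM in LAIR-1- 7, 8 and 10, against 23.9, 19.0 and 20.3 CPM in LAIR-1+ 1, 2 and 3. Every LAIR-1- library stood above every LAIR-1+ library, with means of 42.6 ± 2.95 and 21.1 ± 2.53 CPM (SD, n = 3 each). The log2 fold change was 1.01 ± 0.12 (SE; 95% interval 0.76 to 1.27), or 2.02-fold, with an adjusted p of 0.00052 by edgeR. With any 1 of the 6 libraries left out, it still passed, at log2 fold changes of 0.94 to 1.11. Its counts were whole numbers in all libraries within 0.01, and its exons overlap no other annotated gene.

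Bid, whose product links caspase-8 to the mitochondrial pore formers, was the other member that rose. Its values were 14.8, 14.3 and 18.5 CPM in LAIR-1- 7, 8 and 10, against 11.2, 9.94 and 8.96 CPM in LAIR-1+ 1, 2 and 3. The groups did not overlap, and LAIR-1- 10 stood highest. The log2 fold change was 0.67 ± 0.16 (SE; 95% interval 0.32 to 1.01), with an adjusted p of 0.0366 by edgeR. This call rests on most of the libraries. Of LAIR-1- libraries, leaving out 7 gave Bid an adjusted p of 0.0728 and leaving out 10 gave 0.140. Of LAIR-1+ libraries, leaving out 1, 2 or 3 gave 0.0650, 0.112 and 0.102, with log2 fold changes of 0.54 to 0.75 over all 6 fits. Bid lies at chr6:120891930-120916853 on the minus strand, its exons overlap those of Bcl2l13 on the opposite strand, and its estimated counts were not whole in any of the 6 libraries; how shared reads bear on the difference was not tested. Bcl2l13, given here for that overlap, was at 69.2, 54.2 and 76.7 CPM in LAIR-1- libraries, against 62.4, 67.6 and 71.4 CPM in LAIR-1+ libraries, with overlapping groups (log2 fold change -0.01 ± 0.12, adjusted p = 0.988 by edgeR).

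The other BH3-only genes were mixed. Bbc3, which encodes the p53-induced protein PUMA, had 23.6, 27.8 and 25.1 CPM in LAIR-1- libraries, against 20.5, 17.8 and 19.7 CPM in LAIR-1+ libraries. The groups did not overlap, but the log2 fold change of 0.40 ± 0.12 did not pass (adjusted p = 0.0964 by edgeR). Bcl2l11 had 5.94, 5.14 and 6.55 CPM in LAIR-1- libraries, against 7.43, 6.48 and 6.86 CPM in LAIR-1+ libraries, and these ranges overlapped (log2 fold change -0.23 ± 0.19, adjusted p = 0.636 by edgeR). Bad and Bik, a pair of BH3-only sensitizers, had log2 fold changes of 0.03 ± 0.11 and -0.03 ± 0.12. Of the 6 tested BH3-only genes, 3 did not overlap between groups, all higher in LAIR-1- cells; over all genes, 9.64% were higher without overlap and 21.0% did not overlap in either direction.

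**Figure D2:**
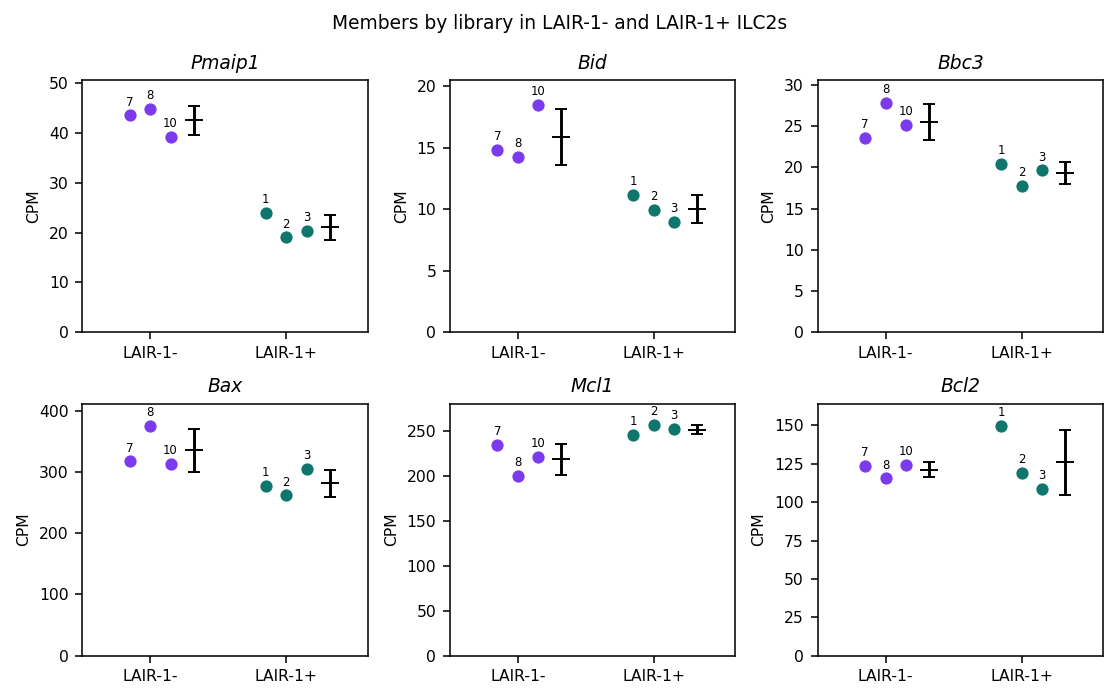
CPM of 6 members in each sorted library, with the library number beside each point and the mean ± SD of 3 libraries as a bar to its right. Pmaip1, Bid, Bbc3 and Bax lay higher in all LAIR-1- libraries than in all LAIR-1+ libraries, Mcl1 lay lower, and Bcl2 overlapped; of these, Pmaip1 and Bid passed the test.

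Among the pore formers, Bax stood at 318, 376 and 313 CPM in LAIR-1- libraries, against 278, 262 and 305 CPM in LAIR-1+ libraries. LAIR-1- 8 was highest, and the groups did not overlap, yet the log2 fold change of 0.25 ± 0.09 did not pass (adjusted p = 0.167 by edgeR). It came to 0.16 without LAIR-1- 8. Bak1, the other pore former, ranged from 4.49 to 12.3 CPM over the 6 libraries, with the groups overlapping and LAIR-1- 8 highest.

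All 5 guard genes had log2 fold changes below 0 in LAIR-1- cells, with a median of -0.20, and none passed the test; over all genes, 6990 of 14261 lay below 0. This count rested on single libraries. Bcl2a1b, at -0.82 ± 0.63 the farthest from 0, came to 0.16 without LAIR-1+ 3, and Bcl2 came to 0.086 without LAIR-1+ 1. Mcl1, which encodes the short-lived guard that NOXA targets, had 234, 200 and 221 CPM in LAIR-1- libraries, against 246, 256 and 252 CPM in LAIR-1+ libraries. It was lower in every LAIR-1- library, with a log2 fold change of -0.20 ± 0.07 (adjusted p = 0.196 by edgeR). Bcl2 had 124, 115 and 124 CPM in LAIR-1- libraries, against 150, 119 and 109 CPM in LAIR-1+ libraries, with overlap (log2 fold change -0.06 ± 0.11, 95% interval -0.29 to 0.18). Bcl2l1, which encodes BCL-XL, had 61.8, 67.1 and 79.5 CPM in LAIR-1- libraries, against 77.0, 75.6 and 75.2 CPM in LAIR-1+ libraries, and LAIR-1- 10 exceeded all LAIR-1+ libraries (log2 fold change -0.13 ± 0.10).

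Bcl2a1b and Bcl2a1d encode copies of the guard A1 on chromosome 9. The coding sequences of these copies have 516 bases each and differ at 6 positions, an identity of 98.8%. The first 90 coding bases from the GENCODE M21 transcripts are shown to let the likeness of the copies be seen; capitals mark the positions where Bcl2a1b and Bcl2a1d differ, and Bcl2a1a is a further copy.
Bcl2a1a: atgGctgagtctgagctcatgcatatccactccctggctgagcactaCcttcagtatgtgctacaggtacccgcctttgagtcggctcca
Bcl2a1b: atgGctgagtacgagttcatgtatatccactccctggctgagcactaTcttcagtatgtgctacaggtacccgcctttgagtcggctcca
Bcl2a1d: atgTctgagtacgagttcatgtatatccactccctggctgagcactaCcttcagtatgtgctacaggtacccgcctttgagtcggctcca
The split of counts among these copies is therefore uncertain, and the sum over Bcl2a1a, Bcl2a1b and Bcl2a1d is the safer measure. The summed level was 10.3, 13.96 and 9.78 CPM in LAIR-1- libraries, against 12.9, 13.5 and 17.4 CPM in LAIR-1+ libraries, and the groups overlapped (log2 fold change -0.37 ± 0.18, adjusted p = 0.365 by edgeR). In KO libraries the sum was 33.4, 43.9 and 29.1 CPM, against 33.4, 35.1 and 26.0 CPM in WT libraries (log2 fold change 0.17 ± 0.23, adjusted p = 0.921 by edgeR). Bcl2a1d was assigned 74.7% to 94.4% of the summed count over the 12 libraries.

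The RNAs of NOXA and its partner were also compared within each library as the ratio of Pmaip1 to Mcl1 CPM, uncorrected for length. Protein levels were not measured here. It was 0.186, 0.225 and 0.177 in LAIR-1- libraries, against 0.0974, 0.0744 and 0.0807 in LAIR-1+ libraries. No LAIR-1- library fell within the LAIR-1+ range, which follows from Pmaip1 being higher and Mcl1 lower in every LAIR-1- library. In KO libraries the ratio was 0.122, 0.182 and 0.216, against 0, 0.111 and 0.0685 in WT libraries, also without overlap. WT 9 had no Pmaip1 count, and KO 13 lay just above WT 10. The ratio of Bcl2l11 to Mcl1 was 0.0254, 0.0258 and 0.0296 in LAIR-1- libraries, against 0.0303, 0.0253 and 0.0273 in LAIR-1+ libraries, which overlapped. The ratio of Bax to Bcl2 was 2.57, 3.25 and 2.52 in LAIR-1- libraries, against 1.85, 2.20 and 2.80 in LAIR-1+ libraries, and it overlapped too. These ratios are descriptions and were not tested.

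None of the 7 tested death receptor and adaptor genes or the 4 caspases passed between the sorted cells. Fas, the prototype death receptor, had 23.9, 26.1 and 24.2 CPM in LAIR-1- libraries, against 24.8, 25.8 and 28.4 CPM in LAIR-1+ libraries, with overlap (log2 fold change -0.09 ± 0.11, 95% interval -0.33 to 0.15). Casp8 had 338, 306 and 358 CPM in LAIR-1- libraries, against 325, 333 and 328 CPM in LAIR-1+ libraries, and LAIR-1- libraries took both the lowest and the highest value (log2 fold change 0.02 ± 0.07, 95% interval -0.13 to 0.18). Tnfrsf10b, which encodes the mouse receptor for TRAIL, had a log2 fold change of 0.34 ± 0.16 without overlap (adjusted p = 0.335 by edgeR). For Tnfrsf10b, LAIR-1- 10 lay only just above LAIR-1+ 1, at 11.56 and 11.51 CPM. Cflar, the inhibitor of caspase-8 at death receptors, was at -0.26 ± 0.10 and Casp2, a caspase linked to genome damage, at -0.28 ± 0.10 on the log2 scale, and neither passed (adjusted p = 0.247 and 0.181 by edgeR). The ratio of Casp8 to Cflar CPM was 5.18, 5.39 and 5.60 in LAIR-1- libraries, against 5.05, 4.09 and 4.28 in LAIR-1+ libraries, without overlap. The same ratio overlapped between KO libraries (10.38, 8.36 and 11.02) and WT libraries (16.77, 6.95 and 9.25). The ratios of Mdm2 to Trp53 and of Bcl2l11 to Bcl2 overlapped in both comparisons. None of these ratios was tested, and how often ratios of other gene pairs do not overlap was not worked out.

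Genes of the apoptosome and the inhibitors of apoptosis (IAPs) stayed within 0.18 of 0 on the log2 scale. Cycs, for cytochrome c, had a log2 fold change of 0.04 ± 0.07 and Apaf1, its partner, -0.17 ± 0.14, with overlapping groups in both. Diablo, which encodes an antagonist of IAPs, was higher in every LAIR-1- library without passing (log2 fold change 0.13 ± 0.08, adjusted p = 0.497 by edgeR). Xiap, Birc2 and Birc3, which encode IAPs, had log2 fold changes of -0.18 ± 0.14, -0.07 ± 0.14 and 0.01 ± 0.08, all overlapping. In total, 9 of the 33 tested members did not overlap between the sorted groups, which is 27.3% of them, against 21.0% of all genes; 7 were higher, against 9.64% of all genes, and 2 lower, against 11.3%.

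Pmaip1 and Bbc3 are known p53 targets, and no gene of the p53 axis itself passed. Trp53 had 168, 173 and 157 CPM in LAIR-1- libraries, against 165, 162 and 169 CPM in LAIR-1+ libraries, with overlap (log2 fold change 0.01 ± 0.07, 95% interval -0.14 to 0.16). Mdm2, which encodes the ligase that degrades p53, had 156, 135 and 149 CPM in LAIR-1- libraries, against 126, 139 and 126 CPM in LAIR-1+ libraries, and LAIR-1+ 2 exceeded LAIR-1- 8 (log2 fold change 0.17 ± 0.08, adjusted p = 0.350 by edgeR). Cdkn1a, for the cell cycle inhibitor p21, had a log2 fold change of 0.05 ± 0.07. Of 23 other tested p53 target genes, none passed by edgeR and 5 had an unadjusted p below 0.05 (21.7%, against 15.4% of all genes). Of the 23, 15 lay above 0, against 7271 of all 14261 genes, with a median log2 fold change of 0.12 against 0.01 over all genes.

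Summed markers named for some other cell types also differed between the sorted groups, and such a sum can rest largely on a single gene. Macrophage and monocyte markers, of which 8 of 10 were listed, summed to 6.30 to 10.8 CPM in LAIR-1- libraries, against 29.5 to 41.5 CPM in LAIR-1+ libraries. NK and ILC1 markers (5 of 7 listed) summed to 49.8 to 63.6 CPM in LAIR-1- libraries, against 18.6 to 36.2 CPM in LAIR-1+ libraries, with Gzmb, which rose, the highest gene at up to 62.4 CPM. The other 3 tested markers of that list, Ncr1, Tbx21 and Prf1, lay below 0 without passing, at log2 fold changes of -1.98, -0.88 and -0.79, and the median of the 4 was -0.84. Epithelial markers (8 of 8) summed to 25.4 to 33.3 CPM in LAIR-1- libraries, against 35.8 to 115 CPM in LAIR-1+ libraries. Endothelial markers (2 of 5) summed to 38.5 to 40.6 CPM in LAIR-1- libraries, against 23.4 to 26.5 CPM in LAIR-1+ libraries, nearly all from Pecam1. No listed marker of these lists was at 0 in all 6 libraries, and the part of these RNAs in the Pmaip1 and Bid results was not tested.

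Outside the 35 members, 4 further sets of cell death and survival genes were followed in the sorted cells. Among 15 tested genes of cell death execution and inflammation, 2 fell and none rose, against 2.71% of all genes called lower and 1.30% called higher. Mlkl, which encodes the membrane-permeabilizing protein of necroptosis, had 98.0, 91.1 and 101 CPM in LAIR-1- libraries, against 165, 151 and 144 CPM in LAIR-1+ libraries. All LAIR-1- values were lower, with a log2 fold change of -0.67 ± 0.08 (adjusted p = 0.000611 by edgeR). Zbp1, a nucleic acid sensor upstream of RIPK3, had 63.1, 37.4 and 45.3 CPM in LAIR-1- libraries, against 110, 74.2 and 69.6 CPM in LAIR-1+ libraries (log2 fold change -0.80 ± 0.20, adjusted p = 0.0431 by edgeR). Zbp1 did not pass with 8 or 10 of the LAIR-1- libraries, or 1 or 2 of the LAIR-1+ libraries, left out (adjusted p up to 0.190). The member Ripk3, the kinase between ZBP1 and MLKL, was at 229, 233 and 230 CPM in LAIR-1- libraries, against 215, 222 and 236 CPM in LAIR-1+ libraries, with overlap (log2 fold change 0.04 ± 0.07).

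Of 16 other TNF receptor pathway genes, 1 fell, against 2.71% of all genes. Tnfaip8 had 115, 105 and 110 CPM in LAIR-1- libraries, against 143, 142 and 137 CPM in LAIR-1+ libraries (log2 fold change -0.36 ± 0.07, adjusted p = 0.0154 by edgeR). Tnfaip8 lost its call with LAIR-1- 10 left out, and with 1 or 2 of the LAIR-1+ libraries left out (adjusted p up to 0.0874).

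Of 14 cytokine survival genes, 2 rose, against 1.30% of all genes. Both encode PIM kinases, which act downstream of IL-2 and IL-7 and can inactivate BAD. Pim2 had 72.5, 71.1 and 74.7 CPM in LAIR-1- libraries, against 39.4, 35.8 and 44.3 CPM in LAIR-1+ libraries (log2 fold change 0.87 ± 0.10, adjusted p = 0.000447 by edgeR). Pim1 had 345, 364 and 351 CPM in LAIR-1- libraries, against 265, 277 and 296 CPM in LAIR-1+ libraries (log2 fold change 0.34 ± 0.07, adjusted p = 0.0154 by edgeR). Neither gene overlapped between groups, and Pim2 passed with any 1 library left out, whereas Pim1 lost its call with LAIR-1- 7, or 1 or 2 of the LAIR-1+ libraries, left out (adjusted p up to 0.111). Of 9 other tested BCL-2 family genes, none passed, and 1 had an unadjusted p below 0.05, against 15.4% of all genes.

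The comparison of KO with WT sets ILC2s of mice without the receptor against ILC2s of WT mice. By edgeR none of the 33 tested members passed, in a comparison that called 1 of 14164 genes (0.00706%). Lair1, the targeted gene, did not pass in it either (log2 fold change -2.59 ± 1.47). At an unadjusted p below 0.05 there were 6 members (18.2%), against 8.37% of all genes: 2 on the higher side, against 3.97%, and 4 on the lower side, against 4.41%. Groups did not overlap for 7 members (21.2%), against 16.2% of all genes: 3 were higher, against 8.20%, and 4 lower, against 7.97%. DESeq2 called 308 of the 14164 genes, among them 2 of the 33 members, Bcl2 and Mdm2. By limma-voom and limma-trend no member was called. The spread was wide: the biological coefficient of variation was 0.505 in KO and WT cells and 0.135 in the sorted cells.

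Mdm2 had the lowest p of the members. It stood at 243, 246 and 245 CPM in KO 13, 14 and 15, against 181, 170 and 199 CPM in WT 9, 10 and 11. The KO libraries lay close together and above all WT libraries. The log2 fold change was 0.42 ± 0.09 (SE; 95% interval 0.20 to 0.63), with an adjusted p of 0.301 by edgeR and 0.00112 by DESeq2. Trp53 had 162, 146 and 228 CPM in KO libraries, against 128, 145 and 137 CPM in WT libraries. KO 14 lay just above WT 10, so the groups did not overlap, and the log2 fold change was 0.39 ± 0.18 (adjusted p = 0.635 by edgeR). KO 15 stood far above the rest, and without it the log2 fold change came to 0.17. Cdkn1a had a log2 fold change of 0.16 ± 0.10 with overlapping groups. Among 21 other tested p53 target genes none passed by edgeR, with 2 at an unadjusted p below 0.05 (9.52%, against 8.37% of all genes) and a median log2 fold change of 0.04.

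Bcl2, the founding guard of the family, had 174, 174 and 136 CPM in KO libraries, against 112, 109 and 114 CPM in WT libraries. All KO libraries were higher, KO 15 by the smallest margin. The log2 fold change was 0.53 ± 0.12 (SE; 95% interval 0.23 to 0.82), or 1.44-fold, with an adjusted p of 0.318 by edgeR and 0.0113 by DESeq2. Mcl1 lay on the other side, at 243, 219 and 189 CPM in KO libraries against 246, 270 and 276 CPM in WT libraries. KO 13 and WT 9 were only just apart, and the log2 fold change was -0.28 ± 0.11 (adjusted p = 0.575 by edgeR). Bcl2l1 had 128, 162 and 161 CPM in KO libraries, against 143, 147 and 170 CPM in WT libraries, with overlap (log2 fold change -0.03 ± 0.13, 95% interval -0.35 to 0.28).

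Bax had 358, 419 and 401 CPM in KO libraries, against 408, 421 and 366 CPM in WT libraries, with overlap (log2 fold change -0.02 ± 0.09, 95% interval -0.24 to 0.20). The ratio of Bax to Bcl2 CPM was 2.06, 2.42 and 2.95 in KO libraries, against 3.63, 3.87 and 3.22 in WT libraries, without overlap. In the sorted cells the same ratio leaned the other way and overlapped. Neither ratio, nor the difference between them, was tested.

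**Figure D3:**
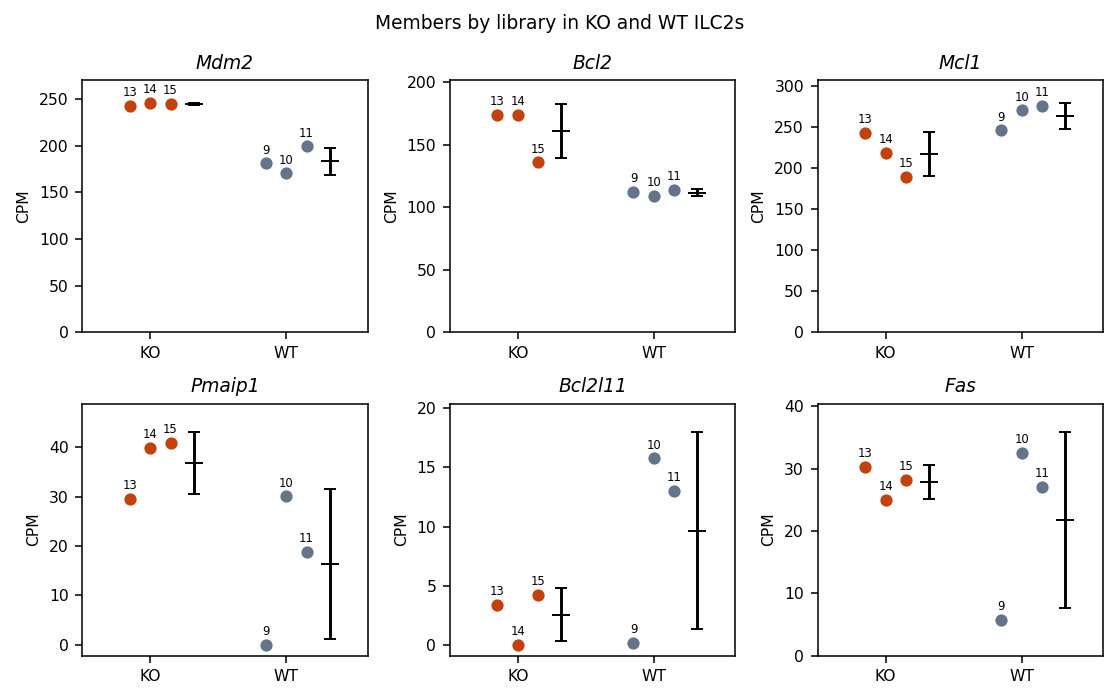
CPM of 6 members in each KO and WT library, with the library number beside each point and the mean ± SD of 3 libraries as a bar to its right. Mdm2 and Bcl2 were higher and Mcl1 lower in all KO libraries than in all WT libraries, whereas Pmaip1, Bcl2l11 and Fas had single libraries near 0 or far below the others.

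Several BH3-only and receptor genes were erratic in this experiment, and WT 9 stood apart. Pmaip1 had 29.5, 39.8 and 40.9 CPM in KO 13, 14 and 15, against 0, 30.0 and 18.9 CPM in WT 9, 10 and 11. WT 9 had no count, where a floor of 3 counts equals 0.161 CPM, and the log2 fold change of 1.17 ± 1.26 came to 0.59 without that library (adjusted p = 0.887 and 0.748 by edgeR). Bcl2l11 had 3.37, 0 and 4.26 CPM in KO libraries, against 0.161, 15.8 and 13.01 CPM in WT libraries. KO 14 and WT 9 were at or near 0, so the interval was wide (log2 fold change -1.92 ± 1.75, 95% interval -6.07 to 2.23). Fas had 30.3, 25.0 and 28.2 CPM in KO libraries, against 5.68, 32.5 and 27.0 CPM in WT libraries. WT 9 alone was low, and the log2 fold change of 0.36 ± 0.57 turned to -0.10 without it.

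For the next count, 1 was added to each CPM and to each median. Of the 33 tested members, 5 in WT 9 then differed by over 2-fold from their median over the 6 libraries. Each of the other 5 libraries had 1 or 2 such members. The direction of 9 members turned when WT 9 was left out, but also that of 8 without KO 13 and of 2 to 5 without any other library. In the sorted libraries, at most 1 member was that far from its median. The coefficient of variation between the 3 libraries of a group had a median over members of 16.9% in KO cells and 16.2% in WT cells, and of 8.43% in LAIR-1- cells and 7.11% in LAIR-1+ cells.

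**Figure D4:**
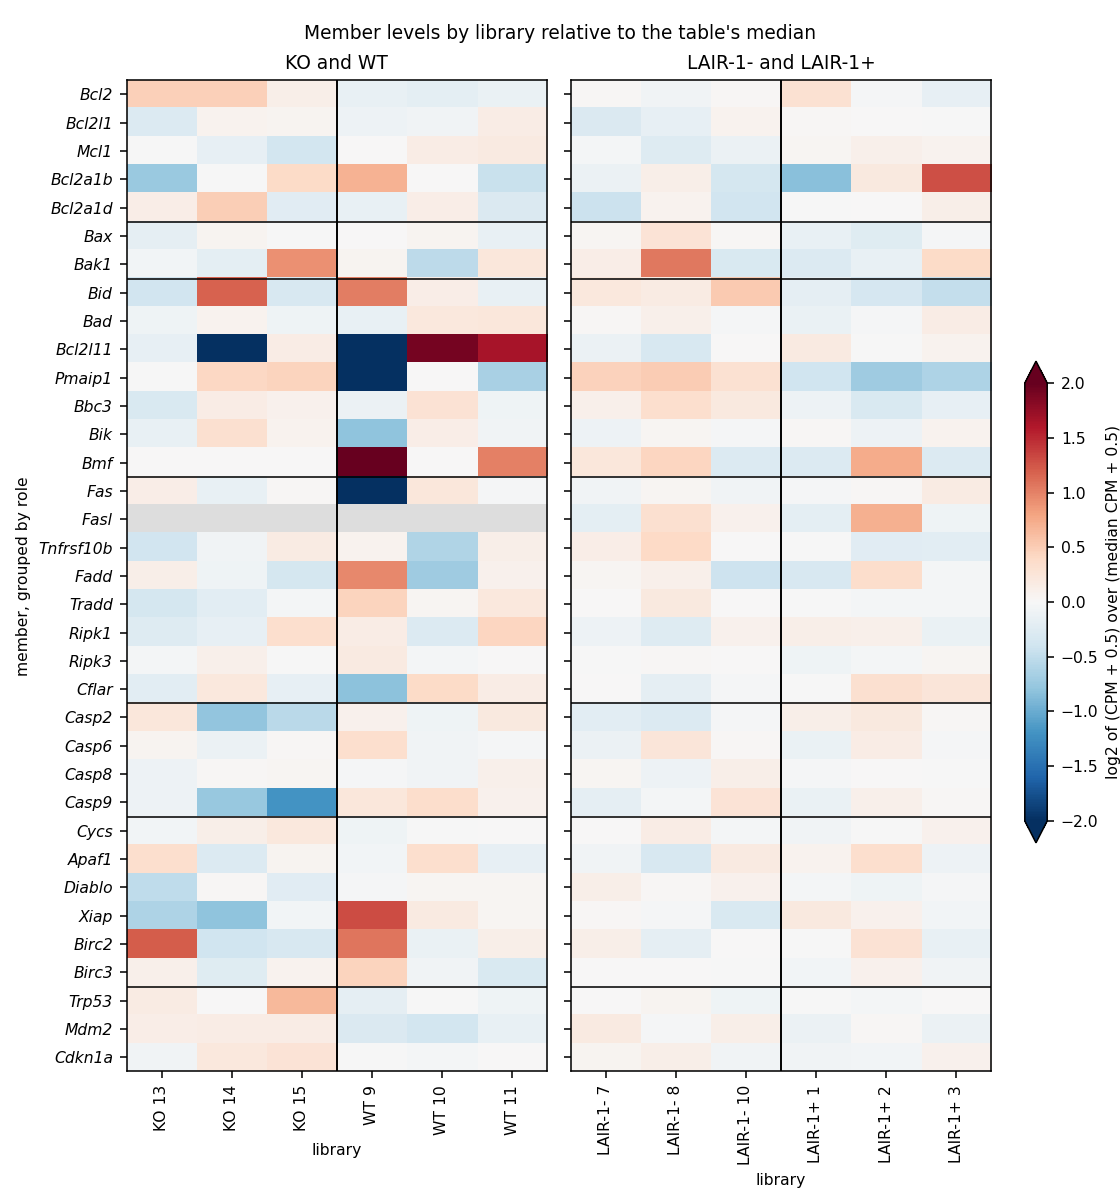
Level of each member in each library, as log2 of (CPM + 0.5) over the member's (median CPM + 0.5) in its 6 libraries, red for higher and blue for lower, with colours ending at 2 and -2 and grey for not analysed. Pmaip1 and Bid run red in LAIR-1- and blue in LAIR-1+ libraries, and the darkest blue blocks are Bcl2l11, Pmaip1 and Fas in WT 9 and Bcl2l11 in KO 14.

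Bid had 7.35, 22.8 and 7.73 CPM in KO libraries, against 20.3, 10.8 and 8.71 CPM in WT libraries, and 1 library of each group was high (log2 fold change -0.07 ± 0.56). Bbc3 had 24.8, 34.3 and 32.7 CPM in KO libraries, against 28.3, 37.9 and 29.0 CPM in WT libraries, with overlap (log2 fold change -0.05 ± 0.22, 95% interval -0.57 to 0.47). None of the 6 tested BH3-only genes had an unadjusted p below 0.05 here. For Pmaip1 and Bid, the intervals of the KO comparison span -1.84 to 4.18 and -1.41 to 1.27 on the log2 scale, so changes as large as those in the sorted cells lie inside them.

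Casp9, Xiap and Tradd were lower in every KO library than in every WT library, without passing. Casp9, for the caspase of the apoptosome, had 29.4, 18.3 and 13.5 CPM in KO libraries, against 37.0, 40.3 and 33.5 CPM in WT libraries (log2 fold change -0.85 ± 0.31, adjusted p = 0.520 by edgeR). Xiap, its inhibitor, had 6.16, 5.35 and 9.39 CPM in KO libraries, against 24.7, 11.1 and 10.1 CPM in WT libraries, and the log2 fold change of -1.13 ± 0.46 shrank to -0.60 without WT 9. Tradd, the adaptor of TNF receptor 1, had 45.3, 49.99 and 56.3 CPM in KO libraries, against 78.9, 59.8 and 67.1 CPM in WT libraries (log2 fold change -0.44 ± 0.16, adjusted p = 0.536 by edgeR). In the sorted cells Tradd was higher in every LAIR-1- library, but LAIR-1- 10 and LAIR-1+ 1 were nearly equal (57.2 and 57.1 CPM). Its log2 fold change there was 0.10 ± 0.09 (adjusted p = 0.698 by edgeR), and the difference between the comparisons was not tested. Casp8 had 459, 499 and 507 CPM in KO libraries, against 484, 467 and 527 CPM in WT libraries, with overlap (log2 fold change -0.01 ± 0.08, 95% interval -0.20 to 0.17).

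Mitochondrial and other cell type RNAs were also summed in this experiment, and no gene of the lists below passed by edgeR. The 13 mitochondrially encoded mRNAs summed to 6248 to 6823 CPM in KO libraries, against 3311 to 5539 CPM in WT libraries. Epithelial markers (6 of 8 listed) summed to 17.9 to 35.01 CPM in KO libraries, against 49.1 to 131 CPM in WT libraries, and Pecam1, the 1 listed endothelial marker of 5, was at 24.5 to 44.4 CPM in KO libraries, against 18.9 to 22.6 CPM in WT libraries. Of the 2 tested epithelial markers, 1 lay above 0 on the log2 scale and 1 below. Macrophage and monocyte markers (3 of 10 listed) summed to 7.24 to 7.39 CPM in KO libraries, against 6.31 to 19.5 CPM in WT libraries. These macrophage ranges overlapped. The part of all these RNAs in the values of Bcl2, Mdm2 and the other members was not tested. No gene of the death execution, TNF receptor, BCL-2 family or cytokine survival lists passed in KO cells by edgeR.

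**Figure D5:**
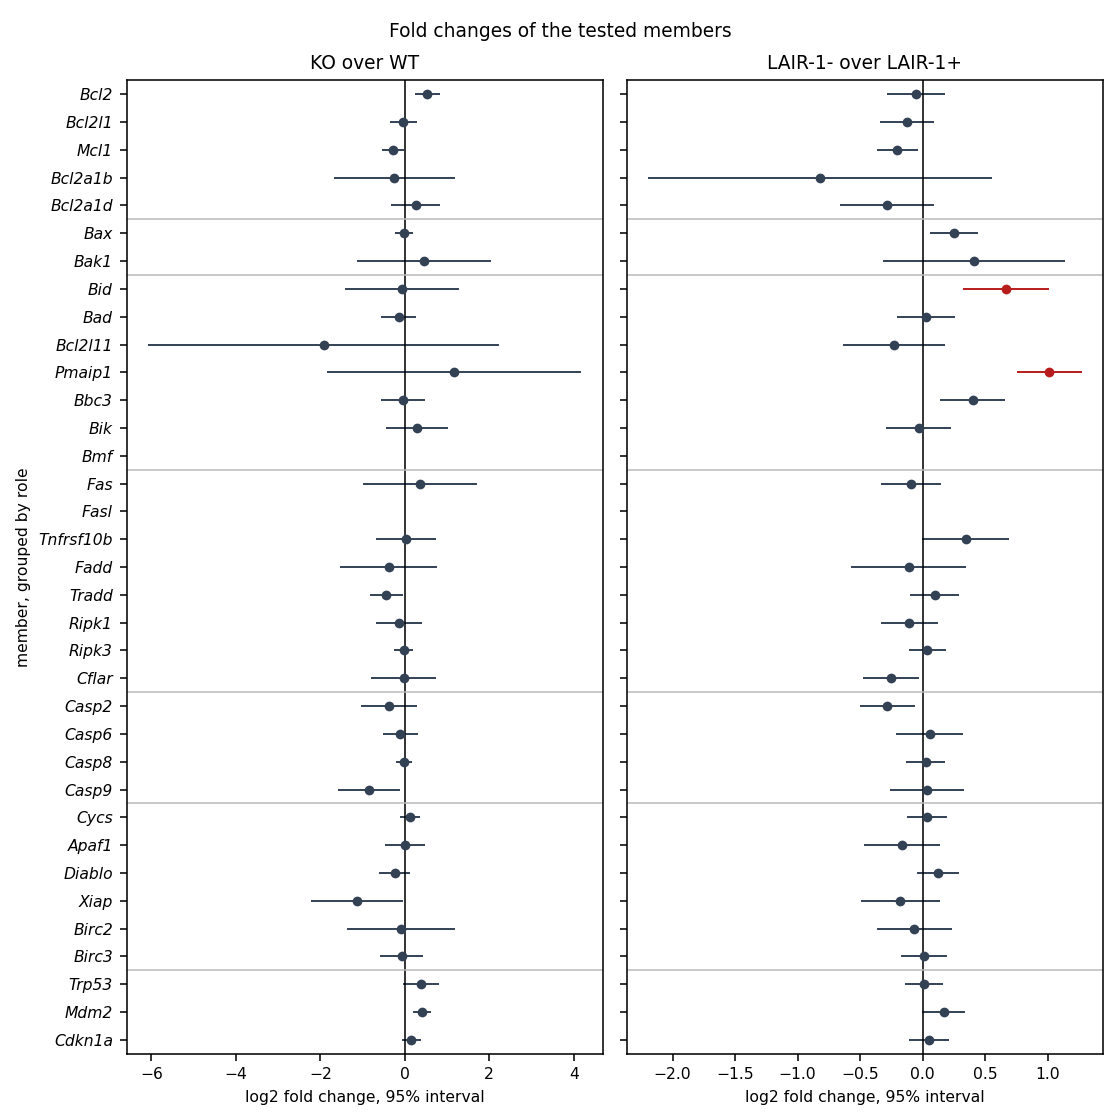
Log2 fold change of each tested member with its 95% interval, KO over WT in the left panel and LAIR-1- over LAIR-1+ in the right, on different horizontal scales, with members that passed at an adjusted p of 0.05 in red. Pmaip1, at 1.01, and Bid, at 0.67, passed in LAIR-1- cells, and no member passed in KO cells, where Bcl2l11 and Pmaip1 had the widest intervals.

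Promoter sequences, from 250 bases before to 50 after the start, were held for 31 of the 35 members in 44 RefSeq promoters of GRCm38.p6; Pmaip1, Bik, Tnfrsf10b and Tradd were not among them. Both strands were searched for the p53 half-site, for TTCNNNGAA, the form bound by STAT factors, and for GTAAACA, the form bound by FOXO factors. A p53 half-site was present in 7 of the 44 (15.9%), against 8.36% of 32851 promoters, and these belonged to Bax, Birc2, Bmf, Cdkn1a, Fasl, Mdm2 and Trp53. TTCNNNGAA was present in 2 of 44, those of Fas and Ripk1, against 8.30% of all, and GTAAACA in 3 of 44, those of Bbc3, Bcl2l11 and Mdm2, against 3.65% of all. No searched motif overlapped another in the sequences shown. Promoters of some of the genes with differences described above are shown. That of Mdm2 lies at chr10:117710709-117711008 and that of Bax at chr7:45466849-45467148, both on the minus strand. A promoter of Bbc3 lies at chr7:16310011-16310310 on the plus strand, and that of Bid at chr6:120916775-120917074 on the minus strand. Capitals mark matches, on either strand, and that of Bid held none. The other promoters held for Bbc3 had no match, nor had those of Bcl2 and Mcl1, which are not shown.
Mdm2: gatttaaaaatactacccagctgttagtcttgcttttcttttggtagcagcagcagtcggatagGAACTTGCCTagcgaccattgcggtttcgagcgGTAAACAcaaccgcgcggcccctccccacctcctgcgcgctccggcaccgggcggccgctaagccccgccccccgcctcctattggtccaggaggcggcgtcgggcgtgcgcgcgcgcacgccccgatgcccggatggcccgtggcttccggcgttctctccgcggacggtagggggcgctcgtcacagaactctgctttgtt
Bax: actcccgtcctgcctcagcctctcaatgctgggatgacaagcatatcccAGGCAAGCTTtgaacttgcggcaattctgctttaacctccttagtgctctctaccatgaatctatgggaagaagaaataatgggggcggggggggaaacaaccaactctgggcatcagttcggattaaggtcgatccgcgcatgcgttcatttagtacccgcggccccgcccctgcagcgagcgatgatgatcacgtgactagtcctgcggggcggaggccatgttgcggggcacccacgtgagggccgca
Bbc3: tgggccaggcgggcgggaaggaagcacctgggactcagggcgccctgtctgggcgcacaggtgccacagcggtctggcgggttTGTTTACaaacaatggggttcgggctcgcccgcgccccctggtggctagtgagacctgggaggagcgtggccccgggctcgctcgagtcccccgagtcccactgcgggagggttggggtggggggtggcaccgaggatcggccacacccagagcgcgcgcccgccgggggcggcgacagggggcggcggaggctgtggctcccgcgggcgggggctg
Bid: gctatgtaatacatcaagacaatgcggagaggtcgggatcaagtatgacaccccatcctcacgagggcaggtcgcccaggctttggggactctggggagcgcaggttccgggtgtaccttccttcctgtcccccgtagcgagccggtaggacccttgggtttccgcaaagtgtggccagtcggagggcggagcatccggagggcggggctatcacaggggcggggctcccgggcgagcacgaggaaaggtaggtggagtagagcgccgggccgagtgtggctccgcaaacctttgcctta
In Mdm2 the first match is a p53 half-site and the second GTAAACA, in Bax the match is a p53 half-site, and in Bbc3 it is GTAAACA on the minus strand. Such matches describe the letters only. Across the sorted groups, Bax and Bbc3 did not overlap and Mdm2 did, whereas across KO and WT Mdm2 did not overlap and Bax and Bbc3 did.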

How the data were processed

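RNA of 12 libraries of sorted lung ILC2s was analysed as 2 experiments, KO with WT and LAIR-1- with LAIR-1+, each within its own table. The authors deposited estimated counts per gene and, for the same genes, CPM with 0.0001 added. STAR 2.5.3a, Partek, bcl2fastq 2.17.1.14 and the mm10 genome are named in the submitters' processing notes; the sources used here give no counting tool, strand setting or gene annotation. Of the estimated counts, 47.9% in KO and WT and 44.4% in sorted cells were not whole within 0.001, so reads shared by overlapping or similar genes may have been split.

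Estimated counts were rounded, filtered with filterByExpr, scaled by TMM and tested by edgeR's quasi-likelihood fit (edgeR 4.0.16, R 4.3.3), with p-values adjusted by Benjamini-Hochberg over all genes at a threshold of 0.05. CPM in the text use the TMM scaling; SEs and 95% intervals come from the same fit. Floors of 3 counts cover counting error only. Alternatives were median-of-ratios factors, library totals, no filter, a mean of at least 5 or 50 CPM, DESeq2 1.42.0, limma-voom and limma-trend (limma 3.58.1), the summed Bcl2a1 copies, and leaving out each library. The fit was tested on simulated data.

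The members and the other gene lists were chosen with earlier results of these data known, so counts over them are no independent support. Full values are given for members that passed in either comparison, for members without overlap and an unadjusted p under 0.01, and for 8 anchors (Bcl2, Bcl2l1, Mcl1, Bcl2l11, Bax, Fas, Casp8 and Trp53); from other lists, up to 4 genes that passed are named, with Bcl2a1a and Lair1; some genes that this rule names are not reported here. Other genes and values were named after they were seen. Exon lengths, overlaps and coordinates are those of GENCODE M21 (GRCm38, the same build as mm10).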

Additional observations from a re-analysis of the deposited data

How the results depend on the processing

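No paired analysis was possible because KO and WT, and LAIR-1- and LAIR-1+, share no replicate numbers.

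Pmaip1 kept its call in LAIR-1- cells under each alternative that tested it, and Bid under the 7 settings that kept all libraries and tested it, but in only 1 of the 6 fits that left out a library. At a mean of at least 50 CPM neither Bid nor Pmaip1 was tested, so 0 members were called there, among 250 genes in all. With a library left out, 333 to 516 genes and 1 to 2 members were called between sorted cells. Zbp1 did not pass with library totals, a mean of at least 50 CPM or DESeq2. In KO against WT the number of genes called was 5 at a mean of at least 5 CPM, 55 at 50 CPM, 308 by DESeq2, 2 by limma-voom and 0 with any library left out; DESeq2 called 2 members higher, Bcl2 and Mdm2. These tools also differ in library scaling, in sample weights or in the values they start from, and the cause was not tested.

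The direction of some members changed. With 1 library left out, those farthest from 0 that turned were, on the log2 scale, Bcl2a1b between sorted cells (-0.82 with all libraries, 0.16 without LAIR-1+ 3), Bak1 between sorted cells (0.41, and -0.10 without LAIR-1- 8), Bak1 in KO against WT (0.45, and -0.095 without KO 15) and Fadd in KO against WT (-0.38, and 0.17 without WT 9). By limma-voom, KO against WT gave Bax 0.040, Bid 0.14 and Bbc3 0.014 on the log2 scale. With a library left out, the KO range was -0.090 to 0.068 for Bcl2l1, -0.077 to 0.039 for Bax, -0.097 to 0.76 for Fas, -0.051 to 0.040 for Casp8, -0.81 to 0.37 for Bid and -0.14 to 0.094 for Bbc3. The LAIR-1- range was -0.15 to 0.086 for Bcl2, -0.029 to 0.081 for Casp8 and -0.024 to 0.047 for Trp53. None of these passed. Leaving out 1 library turned 2 to 9 members in KO against WT and 1 to 6 between sorted cells. Bcl2a1b, Bak1, Bcl2l11, Bmf and Fasl rest on few counts, which limits their precision.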

Other observations

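Some members stood at different levels in the 2 experiments, which were tabulated separately and so were not tested against each other. Cycs had a median of 426 CPM over the 6 sorted libraries and 159 CPM over the 6 KO and WT libraries. The order was opposite for Bcl2l1, at medians of 75.4 and 154 CPM, for Apaf1, at 67.5 and 132 CPM, and for Bcl2a1d, at 11.98 and 28.6 CPM.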
